A study of Mus musculus with 8 samples.

Results

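The genes described here are 8 mouse genes of sterol sensing and of the SREBP pathway, Srebf1, Srebf2, Scap, Insig1, Insig2, Hmgcs1, Mbtps1 and Mbtps2. They were read from a list of 9506 peaks of the transcription factor KLF13 by the gene symbol that the authors assigned to each peak. The rule gave 6 peaks, 1 each for 6 of the 8 genes, and none for Insig2 and Hmgcs1. The peaks come from HT22, a mouse cell line derived from hippocampal neurons and grown as an immortal culture, here with the genotype HT22-BirA, which stably makes the bacterial biotin ligase BirA. All 8 libraries are from such cells transfected with the pTO-Klf13Bio plasmid, from which KLF13 is made with a tag that BirA biotinylates, and chromatin was taken 24 h later. In 4 libraries tagged KLF13 was pulled down on streptavidin (chromatin streptavidin precipitation, ChSP) and the other 4 are input without pulldown. KLF13 was thus made from a plasmid on top of the cells' own gene, and no pulldown from cells without the tagged protein is among these libraries, so KLF13 binding and unspecific capture by the streptavidin cannot be told apart.

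SREBP proteins are transcription factors made as precursors in the membrane of the endoplasmic reticulum, where SCAP escorts them and INSIG proteins hold SCAP back while sterols are plentiful. When sterols fall, SCAP carries the precursor to the Golgi, and the site-1 and site-2 proteases release the active factor, which turns on genes of cholesterol and fatty acid synthesis. The brain makes its own cholesterol, because lipoproteins of the blood hardly cross into it, and mature neurons take up much of theirs from astrocytes. KLF13 is a zinc finger factor of the KLF and Sp family, whose members bind GC boxes and CACCC boxes.

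Every value per peak is the authors', computed once over all libraries. The fold is read as a linear ratio of ChSP over input, and the p-value and adjusted p-value belong to the same peak. No value per library is given, so depth and replicate spread are both unknown, no fold carries an error, and no difference between folds was tested. Folds over all 9506 peaks had a median of 21.1 (quartiles 15.5 and 28.6). Coordinates are on GRCm38.

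The promoter sequences around the starts that matter most are shown here, 250 bases before a RefSeq start (GRCm38.p6) to 50 after it, written 5′ to 3′ in the direction of transcription. They are the start inside Srebf1, Srebf2, Insig1 and the downstream start of Scap, which all lay under a peak, and that of Hmgcs1, which had none and also holds GC boxes. Capitals mark the GC box GGGCGG, the E-box CACGTG and the letters TCACCCCA, each on either strand. TCACCCCA is the core of the sterol regulatory element SRE-1, known from human promoters, through which SREBP factors act, and it was chosen after the sequences were seen.
Srebf1, start in intron 1 (chr11:60210422-60210721, minus strand): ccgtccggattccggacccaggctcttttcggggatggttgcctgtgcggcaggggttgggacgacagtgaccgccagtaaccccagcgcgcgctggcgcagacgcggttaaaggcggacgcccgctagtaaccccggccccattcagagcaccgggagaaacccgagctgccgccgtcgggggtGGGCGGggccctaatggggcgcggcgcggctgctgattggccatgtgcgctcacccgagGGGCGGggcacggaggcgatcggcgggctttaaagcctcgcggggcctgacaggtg
Srebf2 (chr15:82147019-82147318, plus strand): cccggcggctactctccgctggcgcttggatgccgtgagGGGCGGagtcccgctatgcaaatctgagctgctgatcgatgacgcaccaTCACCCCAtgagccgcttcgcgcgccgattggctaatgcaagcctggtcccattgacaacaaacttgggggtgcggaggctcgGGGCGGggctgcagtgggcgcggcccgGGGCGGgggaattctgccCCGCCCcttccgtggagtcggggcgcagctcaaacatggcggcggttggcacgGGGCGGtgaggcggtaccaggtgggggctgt
Insig1 (chr5:28071162-28071461, plus strand): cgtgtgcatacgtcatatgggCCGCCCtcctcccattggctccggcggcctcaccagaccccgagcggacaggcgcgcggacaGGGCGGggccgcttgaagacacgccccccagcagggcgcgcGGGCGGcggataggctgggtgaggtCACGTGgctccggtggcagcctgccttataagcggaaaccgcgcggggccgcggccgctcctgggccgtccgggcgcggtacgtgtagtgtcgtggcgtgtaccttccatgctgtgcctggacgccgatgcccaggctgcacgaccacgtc
Scap, downstream start (chr9:110333106-110333405, plus strand): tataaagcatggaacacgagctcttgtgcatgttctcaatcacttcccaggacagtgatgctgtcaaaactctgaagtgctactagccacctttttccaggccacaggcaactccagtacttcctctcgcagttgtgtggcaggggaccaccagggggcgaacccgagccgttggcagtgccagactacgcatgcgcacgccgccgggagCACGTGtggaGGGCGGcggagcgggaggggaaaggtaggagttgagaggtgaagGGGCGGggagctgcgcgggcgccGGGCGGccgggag
Hmgcs1 (chr13:119690101-119690400, plus strand): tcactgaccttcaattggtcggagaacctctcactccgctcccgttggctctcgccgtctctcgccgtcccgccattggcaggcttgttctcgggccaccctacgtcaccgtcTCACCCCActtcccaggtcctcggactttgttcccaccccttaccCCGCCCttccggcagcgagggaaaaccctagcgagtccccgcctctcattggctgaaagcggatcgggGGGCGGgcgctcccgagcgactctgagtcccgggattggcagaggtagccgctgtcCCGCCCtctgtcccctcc

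Peaks at the annotated promoter were found at the escort, at 1 of the 2 retention factors, at 1 of the 2 SREBP genes and at 1 of the 2 proteases. Scap, Insig1, Srebf2 and Mbtps1 had a promoter peak, one placed by the authors' annotation no farther than 1 kb from a transcription start site (TSS). This made 4 of 8 genes, against 30.9% of 21900 protein-coding genes. Their folds were 34.3, 29.9, 24.1 and 21.8, with a median of 27.0. The median was 22.2 over all 7599 promoter peaks, and 22.7 over the 6769 protein-coding genes with a promoter peak, each counted by 1 peak. With any assigned peak the count was 6 of 8, against 33.6% of protein-coding genes. These are counts and medians of 8 chosen genes, and no test was made of them.

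**Figure D1:**
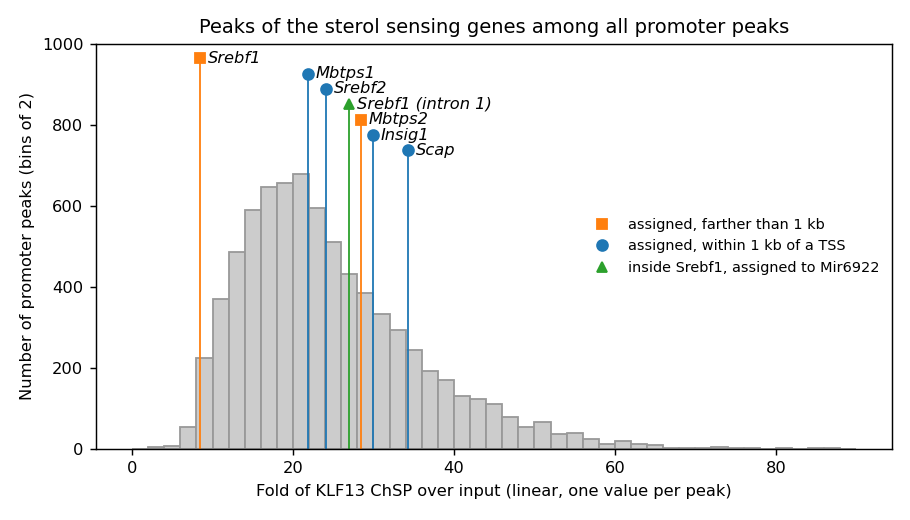
Fold of ChSP over input for the peaks of the sterol sensing genes (coloured stems, whose heights carry no value) over the histogram of the 7599 promoter peaks; the x axis is the linear fold and the y axis the number of promoter peaks in bins of 2. The 4 promoter peaks (circles) lie between 21.8 and 34.3, and the peak in intron 1 of Srebf1 (triangle) at 26.9. Squares are the peaks of Srebf1 (8.39) and Mbtps2 (28.4), which the authors' annotation places beyond 1 kb of a TSS. That of Srebf1 lies nearer to another RefSeq start.

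Scap encodes the escort and sterol sensor that moves SREBP precursors. Its peak (ENSMUSG00000032485) spanned chr9:110333101-110333900, had a fold of 34.3 (in the authors' deposited table, p = 5.21e-20 and adjusted p = 1.47e-16) and covered both RefSeq starts of the gene. Of the 7599 promoter peaks 1291 had a higher fold, so Scap stood at percentile 83.0, the highest among these genes. The peak ran from 255 bp before to 544 bp after the downstream start.

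Insig1 encodes a membrane protein that retains SCAP, and is itself a target of SREBP factors. Its peak (ENSMUSG00000045294) at chr5:28070901-28071700 had a fold of 29.9 (in the authors' deposited table, p = 4.69e-14 and adjusted p = 4.14e-11), at percentile 74.0 of promoter peaks. It reached from 511 bp before to 288 bp after the only RefSeq start in the table. The fold of Insig1 was the next highest after Scap, while its p was the largest of the 4 promoter peaks, so fold and p ordered these peaks differently. Insig2, the second retention factor, had no assigned peak, and the nearest peak on its chromosome lay 93.4 kb from any of its 3 RefSeq starts, with a fold of 12.6 and assigned to Ccdc93.

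Srebf2 encodes SREBP-2, the family member that acts mainly on cholesterol synthesis. Its peak (ENSMUSG00000022463) at chr15:82147101-82148000 had a fold of 24.1 (in the authors' deposited table, p = 4.59e-18 and adjusted p = 8.37e-15), at percentile 57.4 of promoter peaks. With 900 bp it was the widest of these peaks, and it lay mostly inside the gene, from 168 bp before to 731 bp after the start. Promoter peaks had a median width of 700 bp, and the other 3 were 800 bp wide.

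Srebf1 encodes SREBP-1a and SREBP-1c, which are made from separate first exons and act on fatty acid as well as cholesterol synthesis. The peak assigned to it (ENSMUSG00000020538), at chr11:60222801-60223000, was only 200 bp wide and had a fold of 8.39 (in the authors' deposited table, p = 3.14e-06 and adjusted p = 0.000809). It stood at percentile 1.17 when set among promoter peaks. The authors' annotation measures it from a start 2174 bp away and so does not place it within 1 kb. RefSeq has another Srebf1 start nearer by, at position 60222581, and the peak lay from 419 to 220 bp before that start.

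A peak with a higher fold lay inside Srebf1 and carried the name of another gene. It spanned chr11:60210201-60210800 in intron 1, with a fold of 26.9 (in the authors' deposited table, p = 3.52e-13 and adjusted p = 2.68e-10), and was assigned to Mir6922, a microRNA gene within Srebf1, whose start lay 7874 bp away. This peak covered the third RefSeq start of Srebf1, at position 60210471, from 329 bp before to 270 bp after it. The RefSeq table used does not say which of its Srebf1 starts gives which SREBP-1 form. Among promoter peaks its fold would stand at percentile 66.4, between those of Srebf2 and Insig1. Of 337 peaks annotated as intronic, 14 (4.15%) covered a RefSeq start. Of 131 peaks assigned to a microRNA gene, as this one was, 25 (19.1%) did. Counting a gene by a peak over any of its RefSeq starts, whatever gene the peak was assigned to, gave 5 of the 8 genes, with Srebf1 added, against 26.7% of 17492 protein-coding genes with a start in the table.

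**Figure D2:**
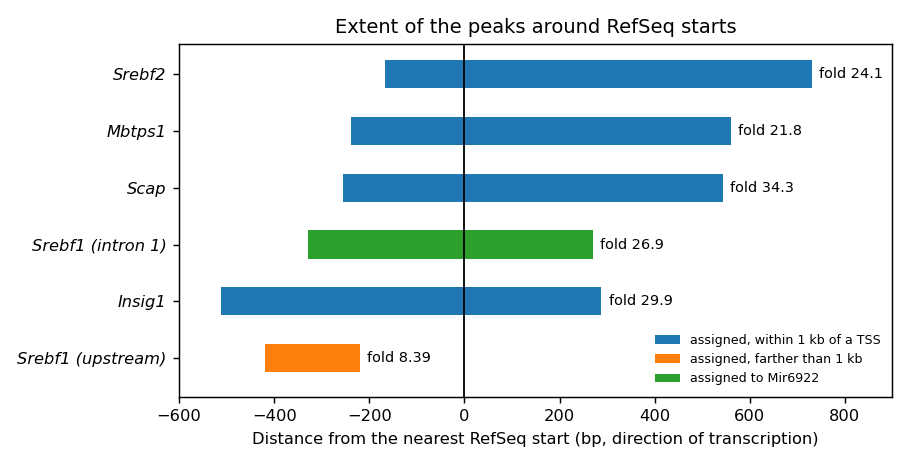
Extent of each peak from the nearest RefSeq start of its gene (vertical line at 0); the x axis is the distance in bp in the direction of transcription, and the bars are peaks labelled with their fold. The intronic Srebf1 peak covers its start much as those of Scap, Mbtps1, Srebf2 and Insig1 do, while the upstream Srebf1 peak ends 220 bp short of a start; the Mbtps2 peak, 14.2 kb away, is not drawn.

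Mbtps1 encodes the site-1 protease, which makes the first cut in SREBP precursors. Its peak (ENSMUSG00000031835) at chr8:119558201-119559000 had a fold of 21.8 (in the authors' deposited table, p = 8.43e-16 and adjusted p = 1.01e-12), at percentile 48.2 of promoter peaks. It ran from 239 bp before to 560 bp after the RefSeq start. Mbtps2 encodes the site-2 protease, which makes the second cut, and had no peak at its start. The peak assigned to it (ENSMUSG00000046873) lay in intergenic DNA 14.2 kb upstream, at chrX:157612901-157613400, with a fold of 28.4 (in the authors' deposited table, p = 1.38e-08 and adjusted p = 5.04e-06). Of 1017 peaks beyond 10 kb of a TSS, whose median fold was 17.2, 98 had a higher fold. This peak lay wholly within the pseudogene Gm15173 (chrX:157612689-157613947), as did 14 of 698 distal intergenic peaks (2.01%) within some pseudogene. No source used here says how reads shared with a gene copy were placed, and their part in this fold was not tested.

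Hmgcs1 encodes cytosolic HMG-CoA synthase, an enzyme early in cholesterol synthesis and a classical target of SREBP factors. It had no assigned peak. The peak nearest to its start was 65.3 kb away, with a fold of 8.59, and was assigned to Nim1k. GGGCGG occurred 3 times in the Hmgcs1 window, and TCACCCCA began 137 bases before the start.

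The 13 RefSeq starts of the 8 genes differed in CpG content in the same direction as starts across the genome. A peak covered 6 of the 13, against 17.8% of all 32851 starts. The 6 starts under a peak held 15 to 38 CpG dinucleotides in their 300 bases (median 31), and the 7 others held 0 to 28 (median 17), so the groups overlapped. The median was 30 over all 5852 starts under a peak and 5 over the 26999 others. Both windows of Scap overlap, so its starts are not separate sequences.

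The highest CpG counts belonged to Insig1 with 38, the intronic Srebf1 start with 36, Mbtps1 with 32 and Srebf2 with 30, and all of these lay under peaks. So did most starts with such counts, 67.9% of all starts with 30 to 34 CpG and 86.6% of those with 35 or more. Scap lay under a peak with only 21 and 15 at its starts. Among all starts with 15 to 19 CpG 20.2% were covered, and among those with 20 to 24 CpG 33.0%. Without a peak were 1 start of Insig2 with 28 and that of Hmgcs1 with 26. Of all starts with 25 to 29 CpG 49.2% were covered. The Mbtps2 start, with 20 CpG and without GGGCGG, had no peak. The Srebf1 start at position 60220627, from which the authors' distance is measured, had 14 CpG and no peak.

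**Figure D3:**
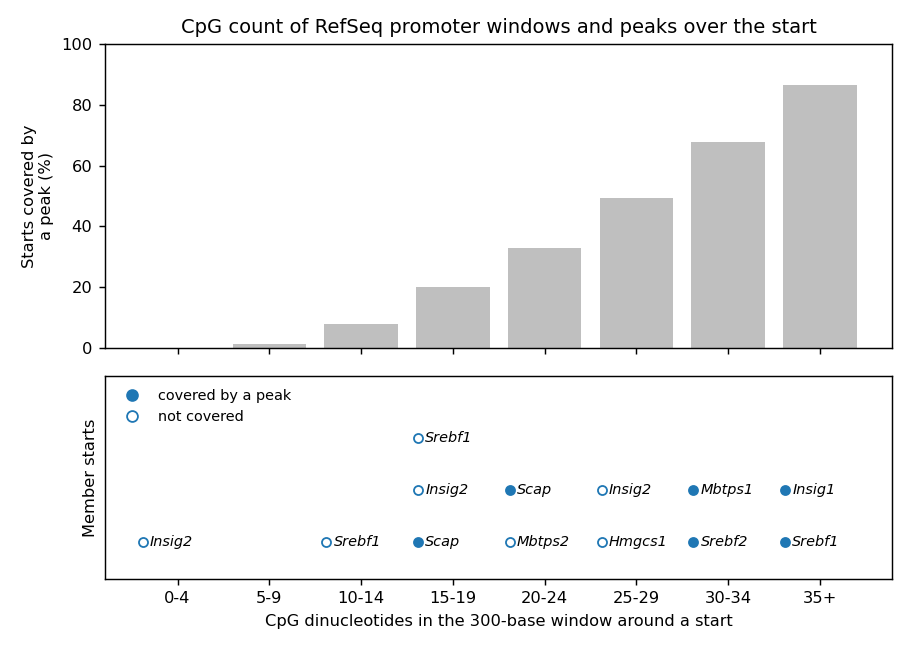
Top, percent of all RefSeq starts covered by a peak, by the number of CpG dinucleotides in the 300-base window around the start; bottom, the 13 starts of the sterol sensing genes in the same bins (filled, covered; open, not covered; height only separates names). Coverage rises from 0.072% with 0 to 4 CpG to 67.9% with 30 to 34 and 86.6% with 35 or more. All 4 member starts with 30 or more are covered.

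GC boxes were frequent at these promoters, with and without a peak. GGGCGG, searched on both strands, occurred in all 6 member starts under a peak and in 4 of the 7 others, against 84.2% of all starts under a peak, 25.1% of those not under one and 35.7% of all starts. Srebf2 had 5 copies, Insig1 and the downstream window of Scap 3 each, the intronic Srebf1 start 2 and Mbtps1 1. Counting each place once, 13 of 14 copies at covered starts lay inside the peak itself. The windows of Insig1, the intronic Srebf1 start and the downstream Scap start lie wholly inside their peaks, and the others at covered starts mostly. This share thus follows largely from the placing of the windows and says nothing about where in them the peaks lie. GGGCGG takes in a CpG, so counts of GGGCGG and of CpG are not separate measures. CACCC, the other box of the KLF family, was in 5 of the 6 covered and 5 of the 7 uncovered member starts. It was in 57.5% of all starts, 67.7% of those under a peak and 55.3% of the others.

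The E-box, CCAAT and the SRE-1 element were searched in the same windows. The E-box CACGTG was found at Insig1, where it began 101 bases before the start, and at Scap, 40 bases before the downstream start. It was at 7.15% of all starts, 10.7% of those under a peak and 6.37% of the others. CCAAT, bound by the SREBP partner NF-Y, was in 3 of the 6 covered starts, those of Insig1, Srebf1 and Srebf2, and in 3 of the 7 others. It was in 29.2% of all starts under a peak and 39.2% of those not under one. Hmgcs1 had 4 copies of CCAAT. The full SRE-1 element was in none of the 13 windows, which says only that its letters are not there, and in 0.0913% of all starts. Its core TCACCCCA was at Srebf2, beginning 162 bases before the start and inside the peak, and at Hmgcs1, and in 1.56% of all starts. The letters of the element hold CACCC, so these motifs overlap. A match of letters is a description of the sequence and not a binding site.

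Other genes of the pathway were counted in 5 lists. Genes that move SCAP to the Golgi or act in sterol-driven protein turnover in the endoplasmic reticulum had promoter peaks at 14 of 24 (58.3%), beside 30.9% of all protein-coding genes, with a median fold of 30.1. The median over the 6769 protein-coding genes with a promoter peak was 22.7. Marchf6, a ubiquitin ligase that acts on squalene epoxidase, had a fold of 54.1. Erlin1, a sterol-binding protein of the endoplasmic reticulum, had 50.3, and Sec24b, a cargo subunit of the COPII coat, had 48.5. These 3 folds are all above that of Scap. The COPII genes Sar1b and Sec23a had no promoter peak.

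Enzymes of cholesterol synthesis other than Hmgcs1 had promoter peaks at 7 of 20 (35%), close to the 30.9% of all protein-coding genes. Their folds ran from 9.16 to 26.2, with a median of 18.7, and so overlapped the range of 21.8 to 34.3 of the 4 sterol sensing genes. Msmo1 and Lbr, which act on sterol intermediates, had folds of 26.2 and 21.2, and Sqle and Lss, which form and close squalene epoxide, had 25.1 and 18.7. Acat2 and Mvk, of the early mevalonate pathway, had no promoter peak.

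Enzymes of fatty acid synthesis, many of them targets of SREBP-1, had promoter peaks at 8 of 14 (57.1%), beside the same 30.9%, with a median fold of 23.7. By peaks over a RefSeq start they were 4 of the 11 with a start in the table (36.4%), beside 26.7% of protein-coding genes. Me1, a malic enzyme that supplies NADPH, had a fold of 46.9. Acaca, which encodes acetyl-CoA carboxylase, had 40.0 at its promoter and 65.0 at a second peak 5.98 kb into the gene, a fold that 27 of the 9506 peaks exceeded. Fasn, fatty acid synthase, had 34.7, and Gpam, which starts glycerolipid synthesis, had 28.3. Acly and Acacb had no promoter peak.

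Genes of sterol uptake, transport and efflux had promoter peaks at 10 of 22 (45.5%), beside 30.9% of all protein-coding genes, with a median fold of 22.9. By peaks over a RefSeq start they were 5 of 14 (35.7%), beside 26.7%. Lrp8, a receptor for reelin and apolipoprotein E, had a fold of 29.2. Gramd1a, a cholesterol carrier of the endoplasmic reticulum, had 26.8 and Npc1, which exports cholesterol from lysosomes, had 24.8. Other known substrates of the site-1 and site-2 proteases had promoter peaks at 2 of 8 (25%), near the 30.9% of all protein-coding genes. These were Gnptab, needed for tagging lysosomal enzymes, with a fold of 43.2, and Creb3l1, a membrane-bound transcription factor, with 28.9. Atf6 and Atf6b had none at the promoter. The count for these substrates was also 2 with the peaks of smallest p, beside 18.6% of protein-coding genes. Within 1 kb of either gene end it was 3, beside 31.8%.

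**Figure D4:**
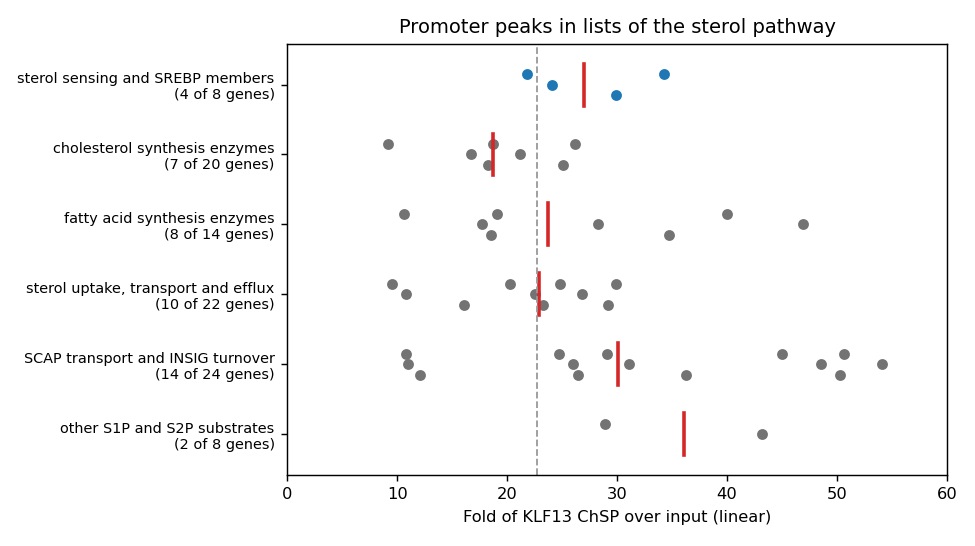
Fold of the promoter peak of each gene (points; the peak nearest the TSS) in the 8 sterol sensing genes and the 5 pathway lists, on a linear x axis; red bars are list medians, and the dashed line is the median of 22.7 over all protein-coding genes with a promoter peak. The 4 sterol sensing genes span 21.8 to 34.3, the cholesterol synthesis enzymes end at 26.2, and the list of SCAP transport and INSIG turnover reaches 54.1.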

How the data were processed

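Chromatin from HT22 cells was sequenced as 4 ChSP and 4 input libraries. The labels number them without saying whether each is a separate culture. Tools named in the submitters' processing notes, with no role given, are HOMER 4.9.1, ChIPseeker 1.16.1, FastQC 0.11.3 and BWA 0.7.17-r1188, on the build GRCm38. PePr appears as the peak caller in the name of the deposited list, and its settings are not stated. The columns of fold, p-value and adjusted p-value carry no descriptive names and were read by their order in the peak format. The fold was thus taken as a linear ratio of ChSP over input, and the scaling between libraries is not stated. The deposited p-value and adjusted p-value were computed by the authors for each peak. No p exceeded 9.99e-06. The deposited score is proportional to the fold and was left out. Peak widths are multiples of 100 bp, so edges are no finer than that. Distances to a TSS and gene assignments are the authors', per the file headers, and each peak is assigned to 1 gene.

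Genes were matched by symbol to a RefSeq table (GRCm38.p6), where all 96 members and list genes matched, and from there to peaks by gene identifier. Promoter windows came from RefSeq, with 13 for the 8 members. A gene's peak nearest the TSS stood for it. Motifs were searched on both strands, and the search was tested on simulated sequences. The text names all members and, from each list, the 4 genes (or fewer) with the highest promoter fold and at most 2 that had no promoter peak. Some genes that this rule takes are not reported here. The members and lists were chosen with earlier results of these data known. No test was made, because no value per library is given. Python 3.11.15, pandas 2.3.3, numpy 2.4.6 and matplotlib 3.10.9 were used.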

Additional observations from a re-analysis of the deposited data

How the results depend on the processing

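No paired analysis was possible because all 8 libraries share a single value per peak, and for the same reason no library could be left out in turn. The count of members with a promoter peak was 4 with the 4753 peaks of smallest p, with the 4753 peaks of fold at or above the median, without the 5% widest peaks and within 1 kb of either gene end. It was 5 within 3 kb of a TSS (31.6% of protein-coding genes) and 6 with any assigned peak (33.6%). With a peak over any RefSeq start, a setting chosen after seeing the data, it was 5 (26.7% of genes with a start in the table). For the settings that gave 4, the shares were 18.6% (smallest p), 18.0% (fold), 29.3% (without the widest) and 31.8% (either gene end). The median fold of the members was 24.1 within 3 kb, 26.3 with any assigned peak and 26.9 with peaks over RefSeq starts, in each because a peak of Srebf1 or Mbtps2 enters, and 27.0 elsewhere. The mean log2 fold of the 4 promoter peaks was 4.76. Of the lists, uptake, transport and efflux fell to 6 of 22 genes with the smallest p and to 6 with fold at or above the median, where cholesterol synthesis had 3 of 20 and fatty acid synthesis 4 of 14; fewer peaks are counted there, and the share of all protein-coding genes was then 18.6% and 18.0%. With a peak over any RefSeq start, counted over genes with a start in the table, the lists had 4 of 15 (cholesterol synthesis), 4 of 11 (fatty acid synthesis), 5 of 14 (uptake, transport and efflux), 9 of 20 (SCAP transport and INSIG turnover) and 1 of 6 (other protease substrates), beside 26.7% of protein-coding genes; fewer genes are counted there. GGGCGG was in at least 1 promoter window of 7 of the 8 members, and the longer GGGGCGGGG of 3. These are counts of genes, and the shares that follow are of starts. By start, GGGGCGGGG was in 3 of the 6 member starts under a peak, beside 34.4% of all starts under a peak. It was in 1 of the 7 other member starts, beside 6.47% of the others, and in 11.4% of all starts. GGGCGG was in all 6 and in 4 of the 7, beside 84.2% and 25.1%.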
